A study of Mus musculus with 4 samples.

Results

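The corepressor genes described here were *Bcor*, *Rybp*, *Ncor1*, *Tbl1xr1*, *Sin3a*, *Sin3b*, *Tle1*, *Tle3* and *Irf2bp2*, 9 genes that code for subunits or partners of transcriptional corepressor complexes. They were looked up by symbol in the peak list of an NFIC ChIP-Seq experiment in mouse pancreas, and 55 of its 15824 peaks were assigned to them. These genes were selected with their peaks known, so the number, position, class and score of the peaks are given as a description and without a test. ChIP-Seq was performed in 3 libraries of NFIC-bound chromatin from wild-type mice of mixed strain, with anti-NFIC antibody A303-123A from Bethyl, beside 1 library of input DNA from the same tissue. The age of the mice was 8 to 12 weeks. The authors deposited 1 merged peak list on the genome build mm10, and it holds no value for a single library, so no spread between libraries can be given and the depth behind a peak is unknown. A peak list carries no expression values, so the label of the tissue could not be checked against marker genes.

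NFIC belongs to the nuclear factor I (NFI) proteins, which bind as dimers to a palindromic DNA site and are found at promoters and at distal elements. In the pancreas, NFIC is a transcription factor of acinar cells, which make the digestive enzymes. Corepressors generally do not bind DNA themselves. They are brought to chromatin by transcription factors and recruit histone deacetylases or Polycomb-type ubiquitin ligases that lower transcription. BCOR and RYBP belong to a variant Polycomb repressive complex, NCOR1 and TBL1XR1 to the nuclear receptor corepressor (NCoR) complex with HDAC3, SIN3A and SIN3B are the scaffolds of the SIN3 histone deacetylase complexes, TLE1 and TLE3 are Groucho-type corepressors used among others by the Notch and Wnt pathways, and IRF2BP2 was named as a partner of the factor IRF2.

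NFIC peaks were assigned to 6 of the 9 genes, with 22 at *Bcor*, 13 at *Rybp*, 8 at *Tbl1xr1*, 5 at *Irf2bp2*, 4 at *Tle1* and 3 at *Tle3*. *Ncor1*, *Sin3a* and *Sin3b* had none. Of all protein-coding genes in the RefSeq annotation, 35.1% had at least 1 peak and 1.63% had 5 or more, a number that *Bcor*, *Rybp*, *Tbl1xr1* and *Irf2bp2* reached. Since the genes were selected on their peaks, nothing is read from these shares. In the promoter window, from -1000 bp to the TSS, none of the 9 genes had a peak by the deposited distances, against 10.1% of protein-coding genes. By the TSSs of the GENCODE M21 annotation, 3 of the genes had one, at -326 bp for *Bcor*, -218 bp for *Rybp* and -4 bp for *Tbl1xr1*, with scores from 5.18 to 5.58. These *Bcor* and *Rybp* peaks lie inside the gene, in intron 1 and intron 2, at 31620 bp and 54009 bp from the nearest RefSeq TSS. The share of all protein-coding genes by GENCODE TSSs was not computed, so the 10.1% is not a comparison for these 3 genes. Of the 55 peaks, 23 lay over 100 kb from the TSS, against 7.6% of all peaks.

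The sequences of 9 peaks are shown first. They include the 4 highest scores of the 55 peaks and show single, paired and exact NFI sites, and the *Irf2bp2* peak of score 11.8 is shown as one of the 20 peaks without a full site. They are read 5′ to 3′ on the plus strand of mm10, from the RefSeq copy of GRCm38, over the 173 bp of each deposited peak. Capitals mark a full NFI site, TGGCNNNNNGCCA, with at most 1 mismatch in its 8 fixed bases. Its letters read the same on both strands.
*Irf2bp2*, score 47.4, chr8:126666559-126666731: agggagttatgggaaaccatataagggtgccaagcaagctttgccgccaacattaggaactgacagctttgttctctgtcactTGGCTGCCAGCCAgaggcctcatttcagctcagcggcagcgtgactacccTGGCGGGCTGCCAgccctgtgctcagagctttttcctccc
*Irf2bp2*, score 29.5, chr8:126667815-126667987: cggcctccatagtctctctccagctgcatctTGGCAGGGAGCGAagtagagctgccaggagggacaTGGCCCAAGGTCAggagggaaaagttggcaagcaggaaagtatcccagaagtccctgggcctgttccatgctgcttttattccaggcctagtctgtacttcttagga
*Irf2bp2*, score 11.8, chr8:126596227-126596399: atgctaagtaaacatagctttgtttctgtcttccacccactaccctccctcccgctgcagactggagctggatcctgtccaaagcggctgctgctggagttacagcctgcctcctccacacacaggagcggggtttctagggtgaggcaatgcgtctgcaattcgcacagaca
*Rybp*, score 23.7, chr6:100195927-100196099: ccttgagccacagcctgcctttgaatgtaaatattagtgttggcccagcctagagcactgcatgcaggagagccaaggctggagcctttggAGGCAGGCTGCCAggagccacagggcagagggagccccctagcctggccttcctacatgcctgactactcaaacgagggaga
*Rybp*, score 20.1, chr6:100144066-100144238: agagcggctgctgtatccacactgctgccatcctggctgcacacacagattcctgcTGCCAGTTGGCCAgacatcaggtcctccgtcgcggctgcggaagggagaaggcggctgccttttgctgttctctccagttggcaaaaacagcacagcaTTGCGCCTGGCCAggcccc
*Rybp*, score 12.9, chr6:100127919-100128091: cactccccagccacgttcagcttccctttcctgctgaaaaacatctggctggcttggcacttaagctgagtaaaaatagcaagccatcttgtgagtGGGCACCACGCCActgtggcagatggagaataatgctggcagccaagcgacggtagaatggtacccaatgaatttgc
*Bcor*, score 13.7, chrX:11735666-11735838: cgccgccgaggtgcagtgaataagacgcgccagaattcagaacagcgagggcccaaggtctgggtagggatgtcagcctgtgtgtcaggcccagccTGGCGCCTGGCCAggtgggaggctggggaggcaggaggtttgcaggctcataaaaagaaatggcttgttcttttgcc
*Bcor*, score 9.96, chrX:12089699-12089871: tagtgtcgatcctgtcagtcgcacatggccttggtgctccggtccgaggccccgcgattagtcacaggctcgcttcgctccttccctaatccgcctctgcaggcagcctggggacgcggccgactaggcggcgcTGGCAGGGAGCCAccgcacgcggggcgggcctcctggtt
*Tle3*, score 8.76, chr9:61405249-61405421: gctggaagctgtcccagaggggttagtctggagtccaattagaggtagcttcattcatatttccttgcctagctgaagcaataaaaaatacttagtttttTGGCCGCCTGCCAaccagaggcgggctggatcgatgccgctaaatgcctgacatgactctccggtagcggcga

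The 2 *Irf2bp2* peaks of scores 47.4 and 29.5 stood 1256 bp apart, and each held 2 full NFI sites. The *Rybp* peak at chr6:100195927-100196099 shows a site with 1 mismatch, and an exact site, TGGCCTTGAGCCA, began 3 bases before its deposited start. The *Rybp* peak at chr6:100127919-100128091 lies on a MER130 repeat. The *Bcor* peak at chrX:12089699-12089871 lies on a CpG island in an intron. A match to these letters is a description of the sequence and does not show which protein was bound there.

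*Bcor*, which codes for the BCL6 corepressor, had more assigned peaks than any other gene of the list. The next were *Xylt1* with 21 peaks, *Nckap5* with 14 and *Rybp* with 13, followed by genes with 12 each, among them *Hpcal1* and *Maml3*. The 22 *Bcor* peaks had scores from 4.18 to 13.7, with a median of 6.27. The median was 6.57 over all peaks and 4.78 over the other peaks of chromosome X. Against the whole list, the gene stood out by the number of its peaks and not by their score. Of the 22 peaks, 10 were in the upper 2 quartiles of score, which held 51.6% of all peaks. The *Bcor* peaks extended over 539 kb of chromosome X and fell into 3 groups. *Bcor* has 3 RefSeq TSSs, and the deposited distances are taken from the nearest one. A first group of 9 intergenic peaks lay past the 3′ end of the gene, with a median score of 6.37. They lay from 128 kb to 367 kb downstream of an internal TSS, or 208 kb to 447 kb from the first base of the gene. This group included the highest *Bcor* score, 13.7, at 344801 bp, with a second peak of score 9.16 on a MER5C repeat 925 bp from it. A second group of 12 peaks lay inside the gene, all of them in introns, with a median score of 6.475 and a maximum of 9.96. Of these 12 peaks, 6 were on annotated CpG islands. The last peak, also on a CpG island, lay upstream at -92131 bp with a score of 5.18. Closest to any RefSeq TSS of *Bcor* was a peak 1755 bp past an internal TSS, 81.7 kb from the first base of the gene. Its score of 4.38 was below the lower quartile of 4.98. The peak closest to the first base of the gene, at 2.08 kb, had a score of 8.17.

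**Figure D1:**
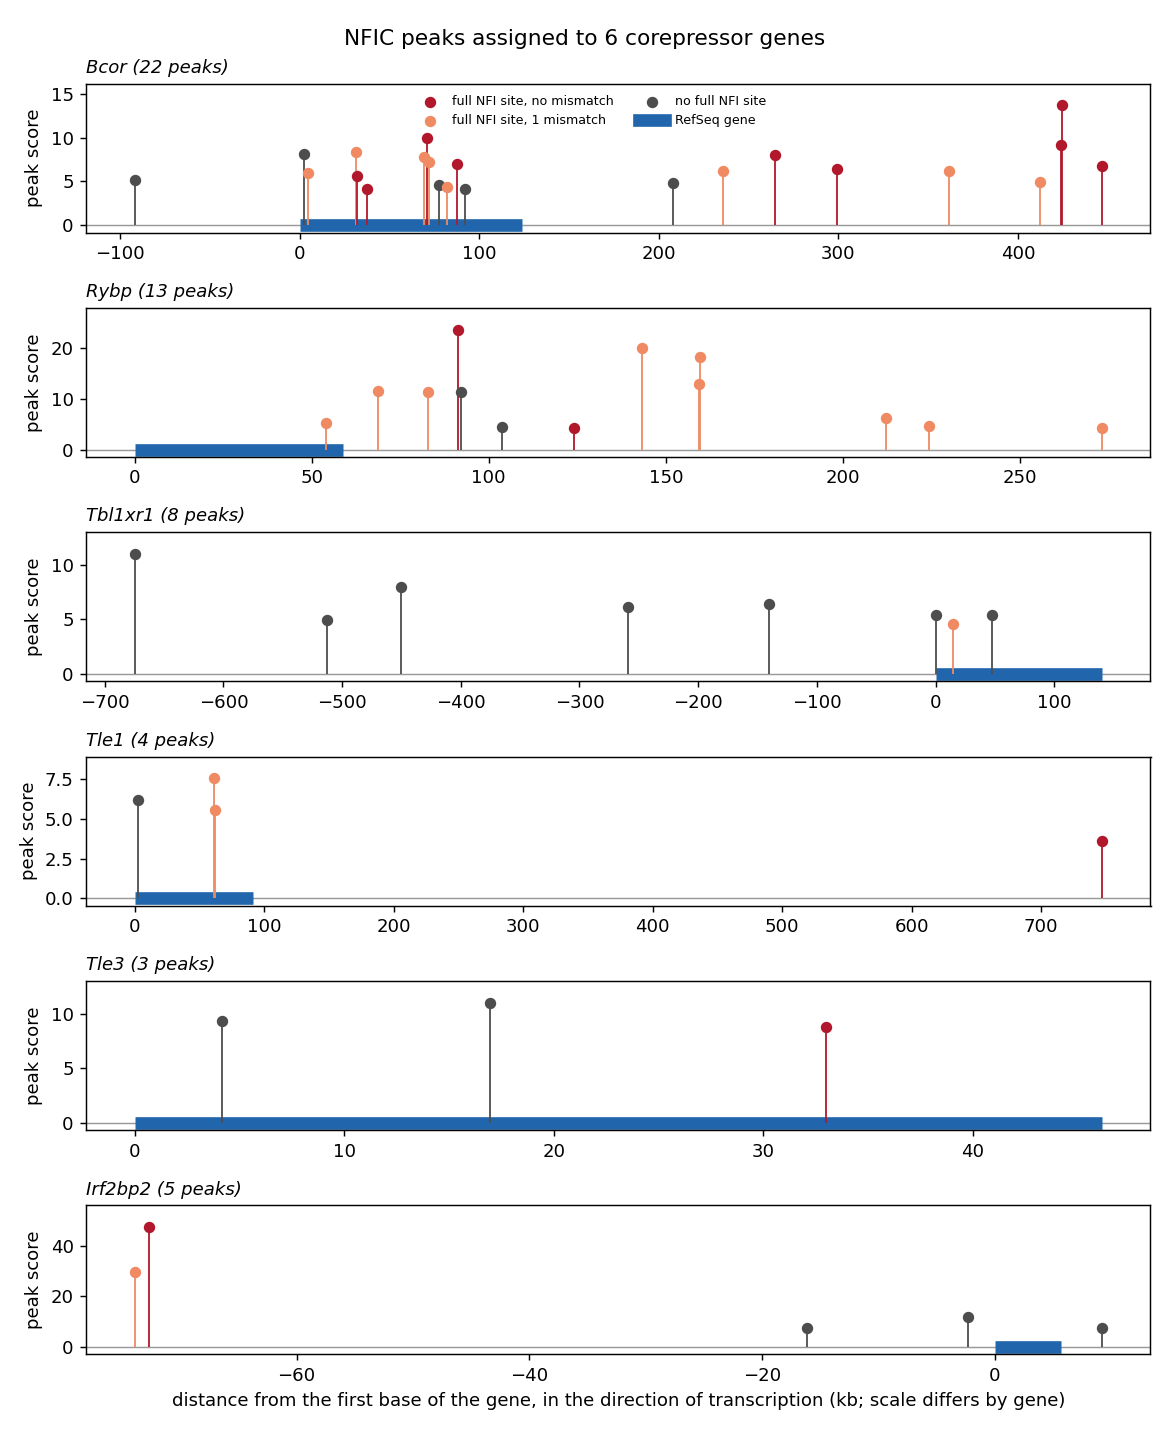
Peak score (y axis) against the distance from the first base of the RefSeq gene in the direction of transcription (x axis, kb, with a scale of its own for each gene) for the 55 peaks of 6 genes. Blue bars mark the genes and point colours the full NFI site; most *Rybp* peaks and 9 *Bcor* peaks lie past the end of the gene, 5 *Tbl1xr1* peaks lie far upstream, and the highest scores, 47.4 and 29.5, belong to the distal pair of *Irf2bp2*.

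*Bcor* held 22 of the 171 peaks on chromosome X, 12.9%. The gene with the next highest number on that chromosome, *Tsc22d3*, had 6. Chromosome X had few peaks otherwise. In the stretch of 553 kb that lay closer to a *Bcor* TSS than to the TSS of any other RefSeq gene, there were 3.97 peaks per 100 kb. The rest of chromosome X had 0.0874 peaks per 100 kb and the whole genome 0.581. The median score of the other 149 peaks on chromosome X was 4.78, and that of all autosomal peaks 6.57. The length of this stretch follows from sparse neighbours, since the closest TSS of another gene was 753 kb away on the downstream side and 195 kb on the upstream side.

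The share of *Bcor* peaks with an NFI site was not among the values used for the selection. The number of peaks with a site is not independent of it, since it depends on the number of peaks. Of its 22 peaks, 17 had a full NFI site with at most 1 mismatch in the 200 bp around the centre, 77.3% (95% Wilson interval 56.6% to 89.9%, counting error only), and 9 had one without mismatch, 40.9% (23.3% to 61.3%). Over all peaks these shares were 51.8% and 13.4%. Among the other 149 peaks of chromosome X they were 59.7% and 16.1%. The *Bcor* share depends on the window, since several of its peaks had their only sites 54 bp or more from the centre. In windows of 100 bp the share with at most 1 mismatch was 41.8% for the 55 peaks and 39.4% for all peaks. It was not computed for *Bcor* alone. *Bcor* had the most peaks with an exact site of any gene, followed by *Dnmt3a* and *Maml3* with 4 each out of 9 and 12 peaks. Since *Bcor* also had the most peaks, its rank in this count is in part given by their number. The 9 exact sites are shown in capitals with up to 14 bases on each side, on the plus strand of mm10.
*Bcor*, peak of score 6.77, site chrX:11713618-11713630: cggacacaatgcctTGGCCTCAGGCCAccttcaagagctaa
*Bcor*, peak of score 13.7, site chrX:11735762-11735774: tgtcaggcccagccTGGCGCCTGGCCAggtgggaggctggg
*Bcor*, peak of score 9.16, site chrX:11736695-11736707: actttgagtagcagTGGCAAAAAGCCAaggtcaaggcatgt
*Bcor*, peak of score 6.37, site chrX:11861346-11861358: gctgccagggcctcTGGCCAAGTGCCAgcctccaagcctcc
*Bcor*, peak of score 7.97, site chrX:11895642-11895654: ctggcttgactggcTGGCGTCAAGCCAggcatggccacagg
*Bcor*, peak of score 6.97, site chrX:12072921-12072933: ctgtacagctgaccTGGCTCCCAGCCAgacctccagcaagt
*Bcor*, peak of score 9.96, site chrX:12089833-12089845: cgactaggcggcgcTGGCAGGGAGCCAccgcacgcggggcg
*Bcor*, peak of score 4.18, site chrX:12123152-12123164: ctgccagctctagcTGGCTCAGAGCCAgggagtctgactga
*Bcor*, peak of score 5.58, site chrX:12128630-12128642: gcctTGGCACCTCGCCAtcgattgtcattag

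The exact *Bcor* sites in the 200 bp windows were not restricted to the downstream group, as 5 lay there and 4 within the gene. The 5 downstream sites lay from -33 bp to 30 bp of the peak centre. The 4 within the gene lay at 5, 54, -68 and -90 bp, so this split depends on the width of the window. The site at -90 bp, chrX:12128630-12128642, began before the deposited start of its peak, 12128640. The 5 free bases between the arms differed at all 9 sites. The score of the peaks that held them went from 4.18 to 13.7, the lowest and the highest score of the gene.

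*Rybp* codes for a RING1- and YY1-binding protein that takes the place of a CBX subunit in variant Polycomb complexes. Its 13 peaks had a median score of 11.4, above the upper quartile of the list, 9.16, and the scores fell into a high and a low set. A set of 7 peaks had scores of 11.4, 11.4, 11.6, 12.9, 18.3, 20.1 and 23.7, and the other 6 had scores from 4.18 to 6.17. All but 1 of the peaks were intergenic and lay past the 3′ end, from 68.8 kb to 273 kb downstream of the TSS. The only peak within the gene was in intron 2 with a score of 5.18. The 7 high scores lay from 68788 bp to 159777 bp downstream, with 2 of the low ones between them, while the outer 3 peaks, beyond 200 kb, had scores of 6.17 or less. The highest score, 23.7 at 91345 bp, ranked 116 of 15824 in the list, and a peak of score 11.4 lay 701 bp from it. The peaks of scores 18.3 and 12.9 were 424 bp apart.

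A full NFI site was found in 11 of the 13 *Rybp* peaks, 84.6% (95% Wilson interval 57.8% to 95.7%), but was exact in only 2. The peak of score 12.9 overlapped a MER130 element, which belongs to an ancient repeat family. The list held 6 peaks on MER130 elements, with scores from 4.58 to 16.3, and all 6 had a full NFI site. Another *Rybp* peak, with a score of 4.58, was on an RLTR40 element, a long terminal repeat.

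*Irf2bp2* had the fewest peaks of the 4 genes with 5 or more, but the highest scores. The peak at -73209 bp, with a score of 47.4, ranked 4 of all 15824 peaks, and its neighbour at -74465 bp, with a score of 29.5, ranked 47. Both held 2 full NFI sites, which were exact in the peak of score 47.4 and had 1 mismatch each in the peak of score 29.5, C12G and C11T, counted from 1 at the 5′ end of the 13-base site. The other 3 peaks lay at -16687 bp, -2877 bp and 8684 bp, with scores of 7.37, 11.8 and 7.37, and none of them held a full NFI site. All 5 scores were above the median of the list. All 5 peaks were intergenic. The deposited distances of these 5 peaks were taken from a TSS that differs by 550 bp from the RefSeq copy used here, where the nearest peak was at -2327 bp.

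**Figure D2:**
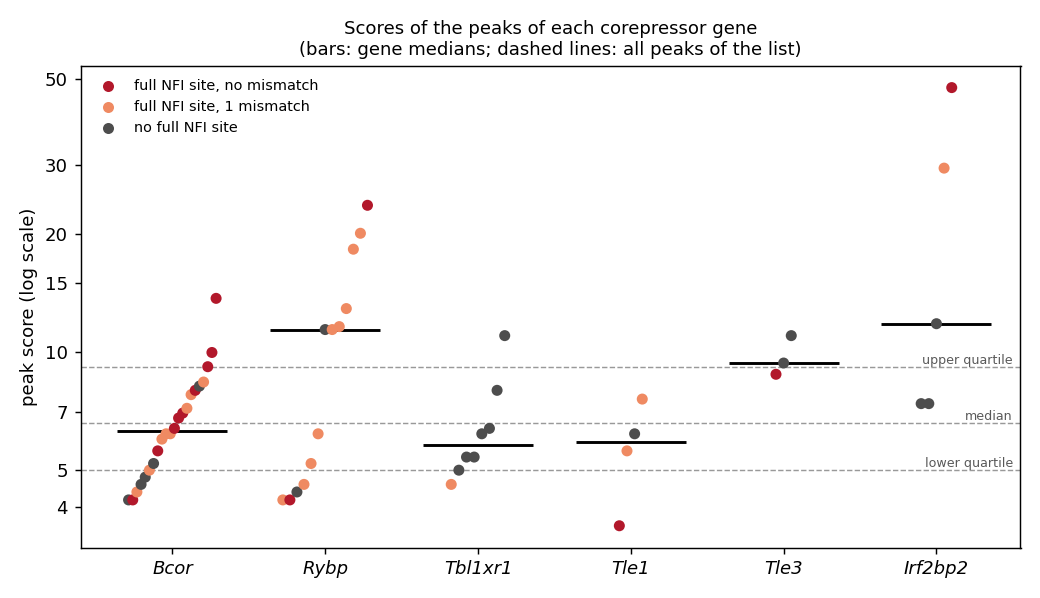
Peak score (y axis, log scale) of each peak of 6 genes, with the gene medians as black bars and the quartiles of all 15824 peaks as dashed lines. The medians of *Irf2bp2*, *Rybp* and *Tle3* lie above the upper quartile of 9.16, while those of *Bcor*, *Tbl1xr1* and *Tle1* lie below the median of 6.57; colours give the full NFI site in the peak.

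*Tbl1xr1*, whose product is a WD40-repeat subunit of the NCoR complex that takes part in the exchange of corepressors for coactivators, had 8 peaks with scores of 4.58, 4.98, 5.38, 5.38, 6.17, 6.37, 7.97 and 11. It was the only gene of the group with a peak of the promoter class. That peak, 100 bp past the TSS, had a score of 5.38 and a GC content of 75.5%, and it held no full NFI site. In intron 1 there were 2 further peaks, at 13919 bp and 47338 bp. The other 5 were intergenic and lay upstream, from -675 kb to -141 kb, the farthest with the score of 11. In the RefSeq copy these 5 peaks were closer to a TSS of the non-coding gene *7530428D23Rik*, so their assignment to *Tbl1xr1* depends on the annotation. Of the 8 peaks, 1 had a full NFI site, 12.5% (95% Wilson interval 2.24% to 47.1%), and none had an exact one. This was the lowest share of the 6 genes. The peaks of a gene are not replicates, and 5 of these 8 have an assignment that depends on the annotation. A difference between the genes was not tested and none is read from the intervals.

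*Tle1* and *Tle3* code for paralogous Groucho-type corepressors, and their peaks were within the gene with 1 exception. *Tle1* had a peak in intron 2, 2529 bp from the TSS, with a score of 6.17, and a pair of peaks 1093 bp apart in exons 12 and 13, with scores of 7.57 and 5.58. Exon peaks were 3.2% of the list. The fourth peak lay 747 kb downstream and had a score of 3.59, the lowest of the 55 peaks. It is the only *Tle1* peak with an exact NFI site in the 200 bp window. That site, chr4:71453929-71453941, ran past the deposited end of the peak, 71453937. *Tle3* had 3 intron peaks, at 4134 bp, 16894 bp and 32969 bp, with scores of 9.36, 11 and 8.76, which are all above the list median. Only the last one held a full NFI site, which was exact. The shorter letters TTGGCA, an NFI single arm, were found in all 4 *Tle1* peaks and in 2 of the 3 *Tle3* peaks.

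No peak was assigned to *Ncor1*, the scaffold of the NCoR complex, and none lay within its 142 kb. The closest peak was at -30891 bp from its nearest TSS, in an intron of another gene, was assigned to *Pigl* and had a score of 5.78. Around *Sin3a* the closest peak was at -76572 bp, was assigned to *Ptpn9* and had a score of 5.18. Around *Sin3b* it was at -173558 bp, was assigned to *Med26* and had a score of 13.3. The stretch nearest to their TSSs was 97.9 kb for *Ncor1*, 29.4 kb for *Sin3a* and 57.5 kb for *Sin3b*, against 187 kb to 788 kb for the genes with peaks, and whether this bears on the absence of peaks was not tested. A gene without an assigned peak may still hold binding below the threshold of the peak call, which is not given in the sources used here.

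**Figure D3:**
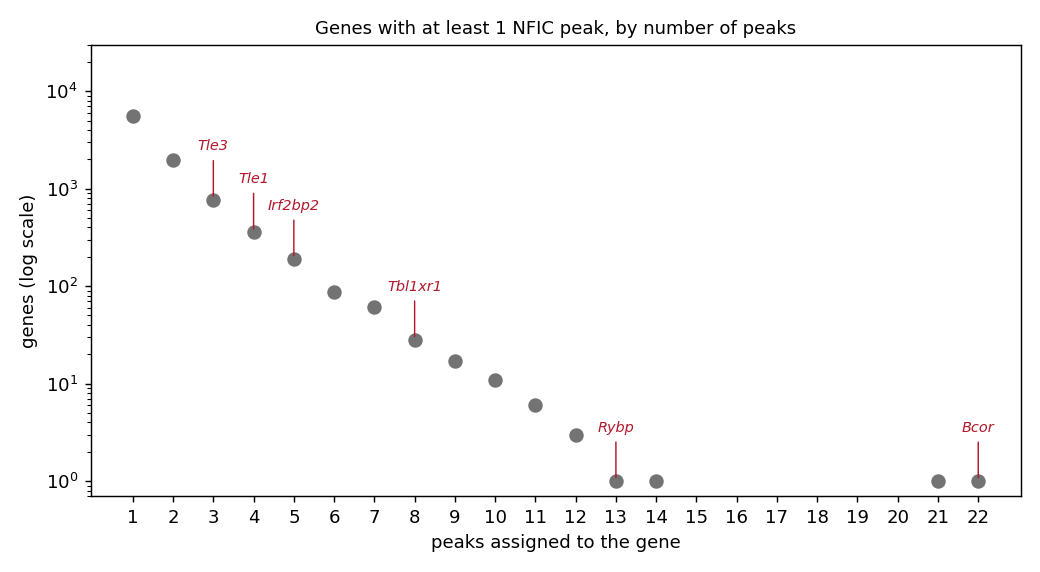
Number of genes (y axis, log scale) with a given number of assigned NFIC peaks (x axis), over the 9086 genes with at least 1 peak. Red labels mark 6 corepressor genes; *Bcor* has 22 peaks, more than any other gene, and *Tle3* has 3, a number shared by 772 genes.

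Over the 9 genes, the stretches nearest to their RefSeq TSSs added up to 2649 kb and held 50 peaks, or 1.89 per 100 kb, beside 0.581 for the genome. Among genes with peaks, the density went from 0.508 at *Tle1* and 0.967 at *Tle3* to 3.97 at *Bcor*. In stretches drawn around the TSSs of protein-coding genes only, the density over the 9 genes was 1.07, and it went from 1.33 to 0.362 at *Tbl1xr1* and to 0.345 at *Tle1*, both below that of the genome. The number, class and score of the peaks were known when the genes were selected, so these values describe the genes and test nothing. The median score of the 55 peaks was 6.77 and that of all peaks 6.57. Intergenic peaks made up 60% of the 55 and 30.6% of the list, and intron peaks 34.5% and 40.8%. The median distance to the TSS, without regard to the sign, was 74465 bp and 10439 bp. Annotated CpG islands held 7 of the 55 peaks, all at *Bcor*, 12.7% beside 3.4% of the list, and annotated repeats held 4, 7.27% beside 10.5%. Peaks with another peak within 1500 bp were 15 of 55, 27.3%, and 7.84% of the list. The distance of the peaks also limits their assignment, as the nearest TSS in the GENCODE M21 annotation belonged to another gene for 25 of the 55 peaks, of which 10 were at *Bcor*, 8 at *Rybp*, 6 at *Tbl1xr1* and 1 at *Tle1*. None of these 25 TSSs was of a protein-coding gene.

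A full NFI site was present in 35 of the 55 peaks, 63.6% (95% Wilson interval 50.4% to 75.1%), beside 51.8% of all peaks, and an exact one in 14, 25.5% (15.8% to 38.3%), beside 13.4%. At 2 or more full sites the shares were 21.8% (12.9% to 34.4%) and 8.5%. Without *Bcor* the shares of the remaining 33 peaks were 54.5% (38% to 70.2%) with at most 1 mismatch and 15.2% (6.65% to 30.9%) without mismatch. Both intervals include the value of the list. They count each peak as independent although peaks of a gene are not replicates, so they are not a test. In windows of the same width 1000 bp to either side, a full site was found in 12.7% of 110 windows beside the corepressor peaks and in 8.87% of those beside all peaks. The 35 peaks with a full site had a median score of 6.97 and the 20 without one of 6.27.

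**Figure D4:**
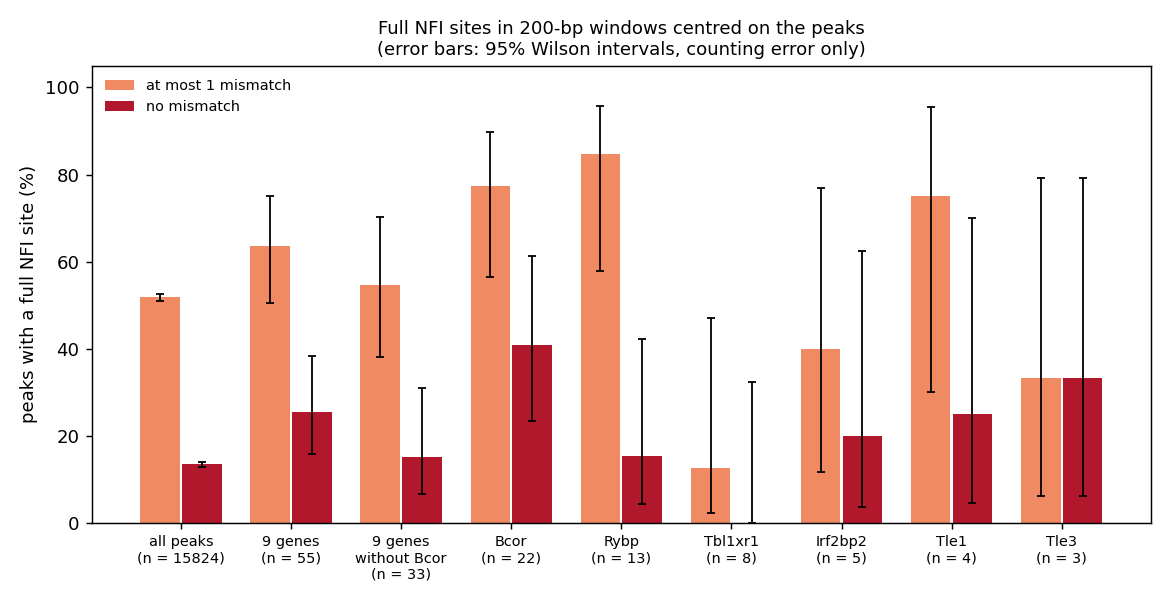
Percent of peaks (y axis) with a full NFI site in the 200 bp around the centre, with at most 1 mismatch (light bars) or none (dark bars), for all peaks, the 9 genes and each gene with peaks. Error bars are 95% Wilson intervals and cover counting error only; the exact share is 40.9% for *Bcor* and 13.4% for all peaks.

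Other short motifs were searched on both strands of the same windows. The single arm TTGGCA, which can overlap a full site, was in 36.4% of the corepressor peaks and 33.6% of all peaks, and 12 of the 55 peaks had neither a full site nor a single arm. E-box letters, CAGCTG or CAGATG, were in 29.1% and 32.5%. NR5A2 letters, CAAGGTCA or CAAGGCCA, were in 9.09% (95% Wilson interval 3.95% to 19.6%) and 5.37%, with 5 peaks in all that included the peak of score 29.5 at *Irf2bp2* and the peak of score 23.7 at *Rybp*. FOX letters, TGTTTAC or TATTTAC, were in 7.27% and 6.38%, and GATA letters, GATAAG, in 3.64% and 7.75%. The interval of the corepressor peaks included the value of the list for these 5 motifs, which is not a test, since peaks of a gene are not replicates. In the *Irf2bp2* peak of score 29.5 and the *Rybp* peak of score 23.7, the NR5A2 letters lie within a full NFI site and are not separate from it. In the *Bcor* peak of score 9.16 they overlap a full site in part. In the *Bcor* peak of score 9.96 they lie apart from its full site, and the *Bcor* peak of score 4.78 has no full site. SP letters, GGGCGG, were in 7.27% (2.86% to 17.3%) of the corepressor peaks and 21.1% of the list, beside a share of peaks in the promoter window of 0% and 15.4%. In the RefSeq promoter table, from 250 bases before to 50 after the TSS, 11 promoters of 8 of the 9 genes were matched and none held a full NFI site with at most 1 mismatch, which 15.3% of all promoters did.

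Among 35 other genes of the same complexes, 16 had at least 1 peak, 45.7% (95% Wilson interval 30.5% to 61.8%), beside 35.1% of protein-coding genes. By complex these were 2 of 3 other NCoR genes, 5 of 17 SIN3 genes, 5 of 9 BCOR and variant Polycomb genes, 3 of 4 Groucho genes and 1 of 2 IRF2BP genes. *Irf2bpl*, the paralog of *Irf2bp2*, had 8 peaks, with the highest score of 35.3 at -9803 bp. *Kdm2b*, whose product brings the variant Polycomb complex to CpG islands, had 4 peaks, all in introns. *Tbl1x*, *Sap30*, *Brms1l*, *Skp1a*, *Bcl6* and *Tle6* had 2 each. The promoter window held a peak at 5 of the 35 genes. It lay at -141 bp with a score of 8.76 at *Irf2bpl*, at -219 bp with 13.3 at *Tle6*, at -50 bp with 5.58 at *Sap30*, at -55 bp with 5.18 at *Rnf2* and at -340 bp with 4.18 at *Tbl1x*. The 19 genes without a peak were *Gps2*, *Hdac1*, *Rbbp4*, *Rbbp7*, *Sap18*, *Sap30l*, *Sap130*, *Suds3*, *Brms1*, *Arid4b*, *Ing1*, *Phf12*, *Fam60a*, *Bcorl1*, *Pcgf1*, *Yaf2*, *Ring1*, *Tle4* and *Irf2bp1*.

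**Figure D5:**
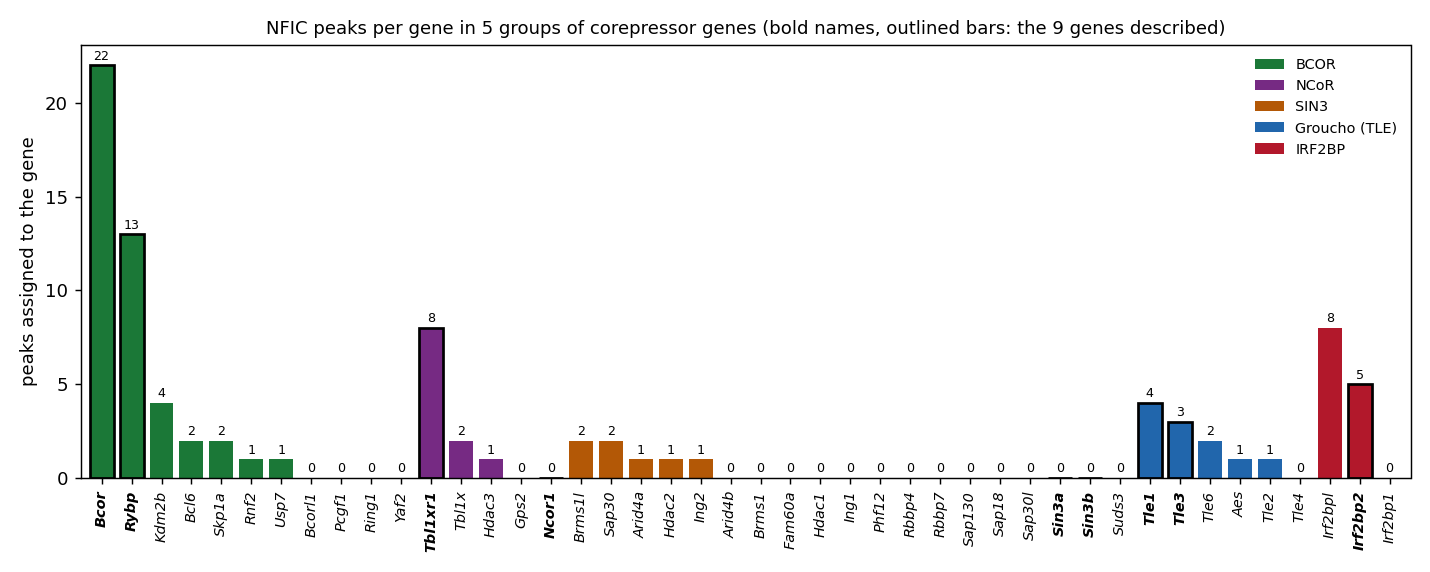
Number of assigned NFIC peaks (y axis) for each gene of 5 groups of corepressor genes (x axis, bar colour), with the 9 genes described here in bold with outlined bars. *Bcor* and *Rybp* have 22 and 13 peaks, while *Ncor1*, *Sin3a* and *Sin3b* have 0.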

How the data were processed

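Per the submitters' processing notes, BWA, Picard, MACS2 and the mouse build mm10 were used; their versions and the threshold of the peak call are not given in the sources used here. The authors deposited a HOMER-annotated list, in which the peak score is their own score on a scale that is not stated, the focus ratio, a fraction, tells how concentrated its tags are, and each peak of 173 bp has the gene of its nearest TSS. No column holds a value per library, so no test was run and depth is unknown. Rows of the 9 genes were selected by symbol. Sequence was read from the RefSeq copy of GRCm38, and the deposited distance equalled that to the RefSeq TSS within 1 bp for 50 of the 55 peaks. Motifs were searched in 200 bp windows centred on the peaks. Intervals are 95% and cover counting error only.

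All 9 genes are named, other complex genes where they were among the 5 with most peaks, ties kept, had a promoter peak or had no peak, and for the rank of *Bcor* the genes next to it. Some genes of these lists are not reported here. A peak was described in full where it had the highest score of its gene, was nearest to its TSS or held an exact NFI site, and peaks that form pairs or share a repeat were added after their values were seen. *Dnmt3a*, *Maml3* and *Tsc22d3* were also named after their values were seen. The genes, lists and alternatives were chosen with earlier results of these data known. Motif search and nearest-TSS steps were tested on simulated data. The software used was Python 3.11 with pandas 2.3.3, numpy 2.4.6, scipy 1.17.1 and matplotlib 3.10.9.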

Additional observations from a re-analysis of the deposited data

How the results depend on the processing

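The list is a merge of 3 ChIP libraries, so leaving out a library was not possible, and the spread between libraries is unknown for every value here. Of 26 alternatives, 13 left a value within 1.5 times the count, or within the interval of the share, median or density, and 13 did not. Keeping only the upper 2 quartiles of score, by construction, left 28 of the 55 peaks of the 9 genes, 10 of the 22 of *Bcor* and 10 of the 16 other complex genes with a peak, while 6 of the 9 genes still had one. Counting peaks in the gene body or up to 10 kb outside it gave 25 for the 9 genes and 12 for *Bcor*. The number of genes with a promoter peak, 0, became 1 with the window extended to 100 bp or to 1000 bp past the TSS, which takes in the *Tbl1xr1* peak, 2 from -5000 bp to the TSS, and 3 with any GENCODE M21 TSS of the gene, an alternative chosen after seeing the data. The share of peaks with a full NFI site, 63.6%, was 25.5% without mismatch and 41.8% in windows of 100 bp, beside 39.4% of all peaks. The density of 1.89 peaks per 100 kb was 1.34 without *Bcor* and 1.07 in stretches around protein-coding genes only. With the nearest RefSeq TSS, 50 peaks were assigned to the 9 genes.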
